A study of Caenorhabditis elegans with 6 samples.

Results

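The genes described here are the 10 that encode the enzymes and vesicular transporters which make and load the classical neurotransmitters of Caenorhabditis elegans. They were chosen by name and found by their WormBase identifiers, and all 10 were among the 46940 features of the count table. By transmitter they are unc-17 and cha-1 (acetylcholine), unc-25 and unc-47 (GABA), eat-4 (glutamate), cat-1 (the shared monoamine transporter), cat-2 (dopamine), tph-1 (serotonin), and tdc-1 and tbh-1 (tyramine and octopamine). RNA came from whole worms of the wild-type strain N2, untreated and grown at 20 °C, with 3 samples at day 10 and 3 at L4, the last larval stage. The sources used here do not say from which event day 10 is counted. Between the ages the animals also became adult, and the series has no young adults, so maturation and ageing cannot be told apart.

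A neuron's transmitter identity rests on a small set of proteins. An enzyme makes the transmitter, a transporter in the vesicle membrane concentrates it for release, and other transporters and enzymes clear it from the synapse. In C. elegans, VAChT and choline acetyltransferase come from a single nested locus, GABA is made by a glutamic acid decarboxylase, and glutamate needs only a vesicular transporter since the cell already holds the amino acid. Dopamine and serotonin share a decarboxylase and the vesicular transporter VMAT. Tyramine is made from tyrosine by tdc-1 and turned into octopamine by tbh-1. Both of these enzymes are known from a few neurons and from the gonadal sheath, and tdc-1 also from the uv1 cells of the uterus.

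The libraries held 19576201 to 23972794 counts in L4 and 23257607 to 25616846 at day 10. Levels are given as CPM, the count as a share of the TMM-scaled library, scaled to the usual fixed library size. Levels of different genes are ranked only as FPKM, which also divides by gene length. Where counts of different genes are set side by side, or CPM summed over a list, gene length is not corrected for. Across genes, log2 CPM of day 10 replicates 1 and 3 correlated at 0.9858 (Pearson), the lowest value within an age. No label records whether the 3 samples of an age were grown as separate cultures. The p-values therefore describe the spread among these 6 libraries, which may be technical. In whole worms, fewer cells of a type, less RNA per cell and a larger share of RNA from other tissues cannot be told apart.

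Most of these genes were lower at day 10, while the tyramine and octopamine enzymes were far higher. Transcripts for acetylcholine, GABA, glutamate and dopamine fell, as did those of the monoamine transporter, by folds of 2.14 to 6.51. The decarboxylase tdc-1 rose 9.14-fold and the hydroxylase tbh-1 rose 73.0-fold. The vesicular GABA transporter unc-47 did not pass the test, and tph-1 was too low to be tested.

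Of the 10 genes, 9 passed the filter on low counts, each with at least 0.423 CPM in all 6 libraries. By edgeR's quasi-likelihood test with Benjamini-Hochberg adjustment over all genes at 0.05, 2 of the 9 rose and 6 fell. Among all 15956 genes tested, 40.5% rose and 45.0% fell. For 8 of the 9, no day 10 library overlapped an L4 library, 2 of them being higher at day 10 and 6 lower. This share is close to the background, where 87.6% of tested genes were so separated, 41.3% higher and 46.2% lower. Their median log2 fold change was −1.55, against −0.16 over all tested genes. Scaling by DESeq2's size factors put that overall median at 4e-04, and upper-quartile scaling put it at −0.62, a shift common to every fold change below. With upper-quartile factors, and also without day 10 replicate 3, 7 of the genes fell, unc-47 being added.

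**Figure D1:**
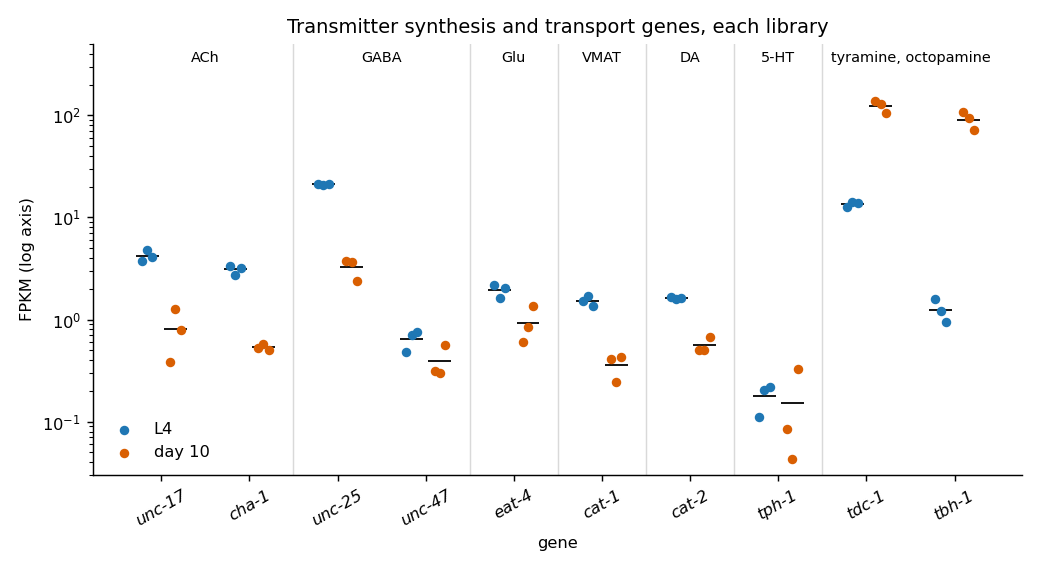
FPKM of each gene in each library on a log axis, with L4 libraries in blue, day 10 libraries in orange and the mean of an age as a black line. The tyramine and octopamine genes lie far higher at day 10, at 71.3 to 138.8 FPKM, while the blue points lie above the orange ones for unc-17, cha-1, unc-25, eat-4, cat-1 and cat-2, and the ages overlap for unc-47 and tph-1.

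The acetylcholine genes fell together. The vesicular transporter unc-17 (WBGene00006756, WBcel235 chromosome IV, 3618259 to 3624699, minus strand) loads acetylcholine into vesicles. It stood at 7.16, 9.51 and 7.85 CPM in L4 replicates 1 to 3 and at 0.756, 2.46 and 1.44 CPM at day 10. Every day 10 library was below every L4 library, but the day 10 values were spread widely, with replicate 1 lowest. The log2 fold change was −2.40 ± 0.37 (SE, n = 3 per age; edgeR's adjusted p = 0.000233).

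Choline acetyltransferase cha-1 (WBGene00000481, chromosome IV, 3613931 to 3624697, minus strand) makes acetylcholine from choline and acetyl-CoA. Its L4 levels were 6.90, 5.84 and 6.59 CPM, and those at day 10 were 1.11, 1.21 and 0.984 CPM. The ages were well apart and each was tight. The log2 fold change was −2.54 ± 0.09 (edgeR's adjusted p = 2.97e-06).

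In the annotation, both genes start with the same exon, and the remaining exons of unc-17 lie inside the first intron of cha-1. They share 66 exon bases, 3.43% of the exon bases of unc-17 and 3.18% of those of cha-1. Counts for the genes therefore rest almost entirely on separate exons. The sources used here do not say whether reads in the shared exon were assigned to either gene.

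**Figure D2:**
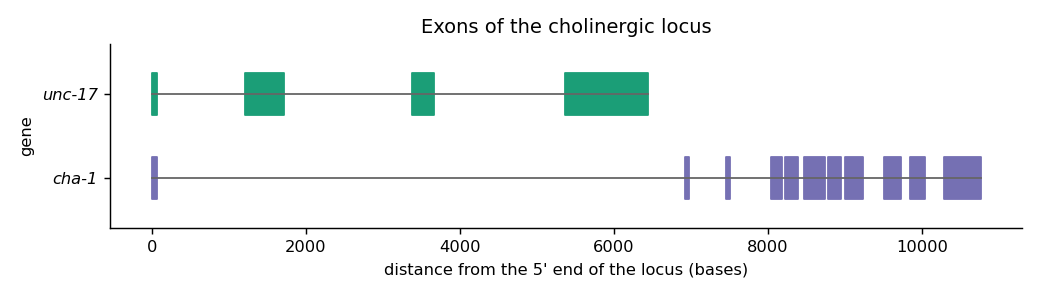
Exons (boxes) and introns (lines) of unc-17 and cha-1 against the distance in bases from the 5′ end of the locus, drawn to scale from the annotation. The first exon is common to both, with 66 shared bases, and the other exons of unc-17 fall within the first intron of cha-1.

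The GABA genes differed in their fitted fold changes, although unc-47 had only 12 to 27 counts a library. Glutamic acid decarboxylase unc-25 (WBGene00006762, chromosome III, 12942651 to 12949883, plus strand) makes GABA from glutamate. It stood at 35.4, 35.4 and 35.2 CPM in L4 and at 6.29, 6.17 and 3.81 CPM at day 10. The L4 libraries were nearly identical and all lay far above the day 10 libraries, of which replicate 3 was lowest. Its log2 fold change, −2.70 ± 0.21, was the largest fall among the genes (edgeR's adjusted p = 9.94e-07).

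The vesicular GABA transporter unc-47 (WBGene00006783, chromosome III, 10183762 to 10186260, minus strand) fills vesicles with GABA in the same neurons. It had 15, 27 and 24 counts in L4, or 0.761, 1.15 and 1.21 CPM, and 13, 12 and 21 counts at day 10, or 0.517, 0.484 and 0.861 CPM. Day 10 replicate 3 lay above L4 replicate 1, so the ages overlapped. The log2 fold change of −0.75 ± 0.20 missed the threshold (edgeR's adjusted p = 0.0835, and 0.0326 without day 10 replicate 3). The pooled counts, 46 at day 10 and 66 in L4, gave a ratio of 0.591 with an exact 95% interval of 0.397 to 0.875. Such intervals cover counting error only, since reads without molecular identifiers are not independent molecules.

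The vesicular glutamate transporter eat-4 (WBGene00001135, chromosome III, 9136887 to 9141827, plus strand) marks glutamatergic neurons. L4 larvae held 4.67, 3.54 and 4.38 CPM, and day 10 animals 1.31, 1.82 and 2.75 CPM. The groups did not overlap, although day 10 replicate 3 came close to the lowest L4 library. The fall, −1.10 ± 0.27 on the log2 scale, was the smallest among the genes that passed (edgeR's adjusted p = 0.00645). On the opposite strand ZK512.2, whose summed counts were 4196 in L4 and 7495 at day 10, shares 79 exon bases with eat-4. Strand was not stated for the counting, so reads there cannot be assigned with certainty.

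The vesicular monoamine transporter cat-1 (WBGene00000295, chromosome X, 5705690 to 5710737, minus strand) loads dopamine, serotonin, tyramine and octopamine. It was at 2.69, 3.11 and 2.46 CPM in L4 and at 0.756, 0.444 and 0.738 CPM at day 10. The day 10 values, from 11 to 19 counts a library, were all below those of L4. The log2 fold change was −2.09 ± 0.16 (edgeR's adjusted p = 0.00013).

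Tyrosine hydroxylase cat-2 (WBGene00000296, chromosome II, 257819 to 261074, plus strand) is the rate-limiting enzyme of dopamine synthesis. Levels of 2.74, 2.69 and 2.67 CPM in L4 compared with 0.835, 0.847 and 1.07 CPM at day 10. Both ages were tight and far apart. The fall was −1.55 ± 0.08 on the log2 scale (edgeR's adjusted p = 0.000247).

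Tryptophan hydroxylase tph-1 (WBGene00006600, chromosome II, 7549335 to 7551983, plus strand) starts serotonin synthesis and is known from a few neurons, among them NSM, ADF and the egg-laying neuron HSN. It had 4, 9 and 8 counts in L4 and 4, 2 and 14 at day 10. The highest and the lowest values were both at day 10, so no direction could be read. The pooled ratio was 0.808 with an exact 95% counting interval of 0.415 to 1.57. That interval leaves out the spread among libraries, so it is not a limit of detection. Without a filter on low counts its log2 fold change was −0.33 (edgeR's adjusted p = 0.698).

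**Figure D3:**
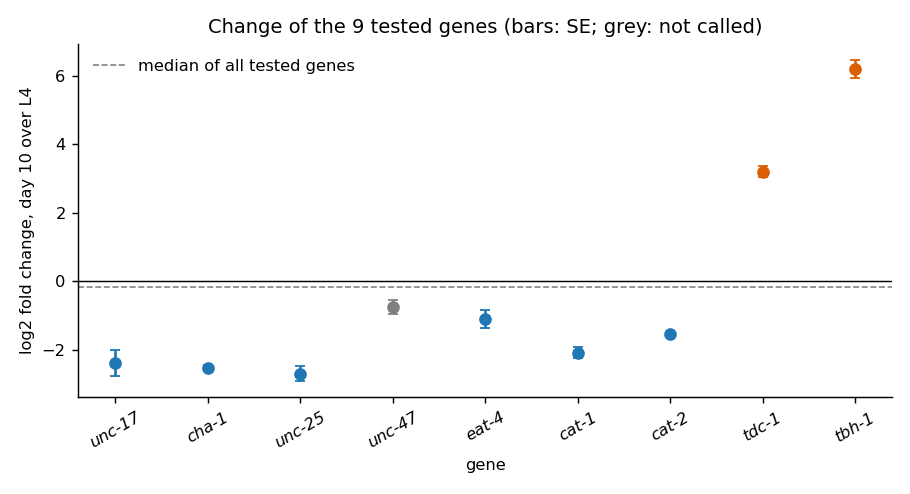
Log2 fold change of day 10 over L4 for the 9 tested genes, with bars for the SE. Orange points rose, blue points fell and the grey point was not called, and the dashed line is the median of all tested genes, −0.16. The point for tbh-1, at 6.19, lies highest and that for unc-25, at −2.70, lowest.

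The tyramine and octopamine enzymes rose in every day 10 library. Tyrosine decarboxylase tdc-1 (WBGene00006562, chromosome II, 8270597 to 8273615, plus strand) makes tyramine from tyrosine. It stood at 27.6, 31.3 and 29.8 CPM in L4 and at 307.6, 286.1 and 217.4 CPM at day 10. The ages were far apart, and day 10 replicate 3 was the lowest of its group. The log2 fold change was 3.19 ± 0.16 (edgeR's adjusted p = 1.6e-07), and 6.76% of all tested genes had a higher one.

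Tyramine beta-hydroxylase tbh-1 (WBGene00006541, chromosome X, 15500256 to 15504895, minus strand) turns tyramine into octopamine. L4 libraries had 61, 57 and 37 counts, or 3.10, 2.43 and 1.86 CPM. Day 10 libraries had 5434, 4695 and 3282 counts, or 216.2, 189.4 and 134.6 CPM. The lowest day 10 library, again replicate 3, was far above the highest L4 library. The log2 fold change was 6.19 ± 0.27 (edgeR's adjusted p = 6.07e-07), and 3.07% of tested genes had a higher one. The pooled ratio was 73.4, with an exact 95% counting interval of 62.6 to 86.5.

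Genes that overlap these enzymes on the opposite strand held fewer counts at day 10 than the enzymes did, but in L4 suox-1 held more than tbh-1. The gene gei-14 shares 73 exon bases with tdc-1, 2.93% of its exon bases, and its summed counts were 1379 in L4 and 6041 at day 10 against 1870 and 20125 for tdc-1. For tbh-1, H13N06.7 shares 372 exon bases and had 3 counts at each age, and suox-1 shares 26 bases with 2791 counts in L4 and 2160 at day 10, against 155 and 13411 for tbh-1. Since strand was not stated for the counting, reads in the shared bases cannot be assigned with certainty.

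Markers of the gonad also moved between the ages, as did most tested genes, of which 40.5% rose and 45.0% fell. Of 4 gonadal sheath genes, the gap junction subunits inx-8 and inx-9 rose. They went respectively from 14.5 ± 0.509 CPM up to 78.1 ± 6.91 CPM, and from 9.11 ± 0.228 CPM up to 27.9 ± 2.27 CPM (mean ± SD, n = 3). In contrast the transcription factors lim-7 and ceh-18 fell, by 0.88 and 2.35 on the log2 scale. The summed level of the 4 genes was 60.2 to 65.7 CPM in L4 and 111.1 to 126.8 CPM at day 10. None of these genes was at 0 in either age. All 9 oocyte and germ line genes rose, from a summed 1146 to 1179 CPM to 8760 to 12452 CPM, with day 10 replicate 3 lowest. That library was also lowest at day 10 for tdc-1, tbh-1 and unc-25 and for the summed gonadal sheath, body-wall muscle and intestinal markers. It was highest at day 10 for the summed pan-neuronal, uv1, epidermal and embryonic proneural genes. Its place thus differed between lists, and the reason was not tested. All 3 uv1 genes fell, ida-1, ocr-2 and nlp-7, from a summed 125.1 to 140.1 CPM to 43.05 to 52.4 CPM, and so did 4 of 4 genes of the spermatheca and uterus, from 1006 to 1066 CPM to 701.0 to 774.0 CPM. The part of any of these cells in the rise of tdc-1 and tbh-1 was not tested.

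The order of the genes by level per length changed between the ages. In L4, unc-25 led with 21.1 ± 0.299 FPKM (SD, n = 3), followed by tdc-1 at 13.5 ± 0.682, unc-17 at 4.23 ± 0.561 and cha-1 at 3.10 ± 0.306 FPKM, each apart from the next. Then came eat-4 at 1.95 ± 0.300, cat-2 at 1.63 ± 0.0411, cat-1 at 1.52 ± 0.163 and tbh-1 at 1.24 ± 0.319 FPKM, where each gene's range overlapped that of its neighbour. Lowest were unc-47 at 0.644 ± 0.146 and tph-1 at 0.178 ± 0.0582 FPKM.

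At day 10, tdc-1 at 124.4 ± 17.5 FPKM and tbh-1 at 90.9 ± 18.2 FPKM led, with overlapping ranges, ranking 1122 and 1771 among all features. The decarboxylase unc-25 followed at 3.26 ± 0.738 FPKM. The other 7 genes lay between 0.929 ± 0.381 FPKM for eat-4 and 0.152 ± 0.153 FPKM for tph-1, each overlapping its neighbour in the order. For cat-2 the gene length behind the deposited FPKM was 1644 bases, against 2434 exon bases in the annotation used here. The lengths differed less for tdc-1 (2175 against 2490), cat-1 (1800 against 2008) and tbh-1 (1979 against 2182). The place of cat-2 in the order thus depends on the gene model, and the places of genes at nearby levels may too.

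Within each library, the share of the 10 genes' summed FPKM that belonged to each transmitter turned over. Tyramine and octopamine enzymes made up 29.3%, 30.8% and 29.9% in L4 and 97.4%, 96.8% and 96.2% at day 10. The share of the GABA genes went from 44.3 ± 0.736% to 1.64 ± 0.0604%, and that of the acetylcholine genes from 14.9 ± 0.408% to 0.619 ± 0.227% (SD, n = 3). Glutamate went from 3.98 ± 0.638% to 0.446 ± 0.259%. A share does not depend on the scaling between libraries, but a rise in one gene lowers the shares of the others. In all 7 groups the ages did not overlap, with an exact two-sided permutation p = 0.1, and 0.1 after Benjamini-Hochberg adjustment over the 7. This is the smallest p that 3 libraries against 3 can give. The 7 are not separate results, since the large rise of the tyramine and octopamine share lowers every other share. The serotonin share did not overlap either, although the level of tph-1, its only gene, overlapped between the ages.

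Ratios between 2 genes within a library show whether whole-worm levels of enzymes moved with those of their partners. The 2 genes of a pair need not come from the same cells, tdc-1 and tbh-1 being known also from the gonadal sheath. Of 6 pairs compared, 5 had ratios that did not overlap between the ages. How often other pairs of genes are so separated was not computed. By CPM, 87.6% of single tested genes were, so this count alone says little about the partners. The count of tbh-1 was 0.112, 0.0777 and 0.0624 of that of tdc-1 in the L4 libraries and 0.703, 0.662 and 0.619 at day 10. The log2 ratio rose by 3.00, from −3.60 ± 0.425 to −0.60 ± 0.0917 (exact two-sided permutation p = 0.1; 0.12 adjusted over the 6 pairs). The log2 ratio of tdc-1 to the transporter cat-1 differed by 5.27, from 3.42 ± 0.145 to 8.69 ± 0.555, with the same p.

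The pair of cholinergic genes showed no shift in its mean ratio. The log2 ratio of cha-1 to unc-17 was −0.33 ± 0.332 in L4 and −0.33 ± 0.799 at day 10, overlapping (exact permutation p = 1), though single day 10 libraries ranged from −1.01 to 0.547. In the GABA pair, the log2 ratio of unc-25 to unc-47 was 5.08 ± 0.359 in L4 and 3.10 ± 0.847 at day 10, a difference of −1.99 (exact permutation p = 0.1). The dopamine enzyme cat-2 stood at 0.545 higher on the log2 scale relative to cat-1 at day 10 (exact permutation p = 0.1), where L4 replicate 3 and day 10 replicate 1 differed only by 0.112 against 0.141. The ratio of tph-1 to cat-1 differed by 1.47 on the log2 scale, or 0.863 without day 10 replicate 3 (exact permutation p = 0.1 with all libraries), and rests on 2 to 14 counts of tph-1 a library.

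**Figure D4:**
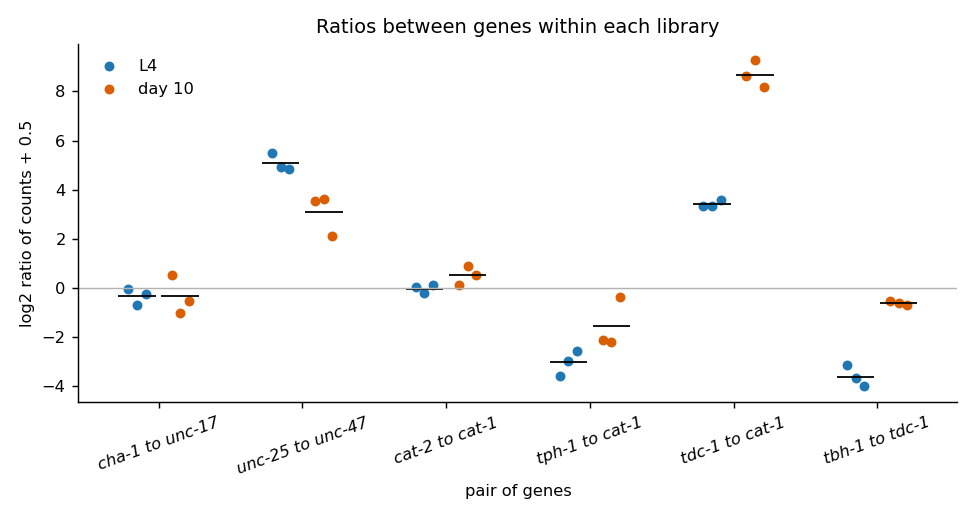
Log2 ratio of counts, with 0.5 added, between 2 genes of the same library, for 6 pairs, with L4 in blue, day 10 in orange and means as black lines. The ratio of tbh-1 to tdc-1 lies between −3.98 and −3.14 in L4 and between −0.692 and −0.509 at day 10, whereas the points of cha-1 to unc-17 overlap.

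A list of 18 pan-neuronal genes, which serve neurons of every transmitter, gave a second scale. Of these, 14 fell and 3 rose, where 45.0% of all tested genes fell and 40.5% rose. Their median log2 fold change was −1.20, against −0.16 over all tested genes. Those that rose were snb-1 (synaptobrevin), unc-33 and unc-119, and several genes of the list are also used outside neurons. With upper-quartile factors 1 rose. The neuropeptide-processing genes egl-3 and egl-21 fell by 0.97 and 1.26 on the log2 scale. The summed level of the list was 738.8 to 779.7 CPM in L4 and 571.0 to 649.5 CPM at day 10.

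Against the median of that list in the same library, the cholinergic genes and unc-25 were lower at day 10 than in L4. On the log2 scale the differences were −1.36 for unc-17, −1.36 for cha-1, −1.57 for unc-25, −0.93 for cat-1 and −0.38 for cat-2. For tdc-1 and tbh-1 they were 4.35 and 7.35. In these 7 genes the ages did not overlap (exact two-sided permutation p = 0.1 for each of them, the smallest possible, over 10 genes compared). On the same scale 85.8% of all tested genes were so separated, 57.5% higher at day 10 and 28.3% lower, so the separation of 7 genes is not particular to them. For eat-4, unc-47 and tph-1 the ages overlapped, with differences of 0.0194, 0.416 and 0.539 (exact permutation p = 1, 0.4 and 0.8), which does not show that they moved like other neuronal genes. Replicate 3 was the highest of the day 10 libraries for eat-4, unc-47 and tph-1 on this scale.

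The other genes of transmitter use were taken by role, as 9 lists of 99 genes in all, of which 96 were tested. Of these 69 fell and 5 rose. Their median log2 fold change was −1.10. By comparison, 45.0% of all tested genes fell and 40.5% rose. Under DESeq2's size factors 61 of them fell, and under upper-quartile scaling 85 did.

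Among the cofactor and shared synthesis genes, all 6 fell, or 5 under 9 of the 14 alternatives, where 45.0% of all tested genes fell. The weakest call was that of ptps-1, which acts in tetrahydrobiopterin synthesis (edgeR's adjusted p = 0.0453). The aromatic amino acid decarboxylase bas-1, the last step to dopamine and serotonin, went from 45.7 ± 0.678 to 3.63 ± 1.502 CPM, a log2 fold change of −3.65 ± 0.32. GTP cyclohydrolase cat-4 and the pteridine reductase qdpr-1, which make and renew the tetrahydrobiopterin needed by cat-2 and tph-1, fell by 0.87 and 0.95 on the log2 scale. Of 5 tested paralogues of the decarboxylases and vesicular transporters, 3 fell, namely hdl-1, hdl-2 and basl-1, the last from 19.2 ± 2.02 to 0.553 ± 0.110 CPM. With upper-quartile factors, with no filter and without day 10 replicate 2, 5 genes of that list fell. These decarboxylase paralogues had the opposite direction to tdc-1. The transporter paralogue vglu-2 was at 33.7 ± 1.15 CPM in L4 and 27.8 ± 4.32 CPM at day 10, short of the threshold (edgeR's adjusted p = 0.0533), and unc-46, which helps place unc-47 on vesicles, was too low to be tested.

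Of 11 reuptake transporters, 10 fell, where 45.0% of all tested genes fell and 40.5% rose. The glutamate transporter glt-4 fell by 0.54 on the log2 scale. The glutamate transporter glt-1 went from 101.2 ± 4.35 to 35.8 ± 5.01 CPM and the betaine transporter snf-3 from 42.7 ± 1.11 to 19.9 ± 1.66 CPM, while the serotonin transporter mod-5 stood at 2.33, 3.796 and 4.38 CPM in L4 and 1.83, 3.31 and 3.16 CPM at day 10, with overlap. Of 8 genes listed as degrading enzymes, 5 fell and 1 rose. The GABA transaminase gta-1 fell from 437.6 ± 6.22 to 66.0 ± 12.6 CPM and acetylcholinesterase ace-2 by 2.40 on the log2 scale. The amine oxidase family member amx-1 rose from 11.7 ± 1.19 to 32.4 ± 0.915 CPM. It was listed by its family, and whether it degrades a transmitter was not tested.

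Receptor genes were mostly lower as well, where 45.0% of all tested genes fell and 40.5% rose. All 9 acetylcholine receptor genes of muscle and of the muscarinic type fell, with the muscle subunit lev-1 at −2.99 ± 0.06 and the muscarinic receptor gar-2 at −1.86 ± 0.19 on the log2 scale. The fall of unc-63, −0.53, was lost with DESeq2's size factors, in DESeq2's own test and without L4 replicate 2 or 3 or day 10 replicate 2. Of 8 GABA receptor genes 7 fell, the muscle receptor unc-49 from 47.9 ± 3.34 to 6.12 ± 0.747 CPM. The metabotropic GABA receptor subunits gbb-1 and gbb-2 fell by 1.70 and 2.56 on the log2 scale. Body-wall muscle markers fell by more, with a median log2 fold change of −4.68 over 5 genes, and their part in these falls was not tested. Of 18 tested glutamate receptor genes 11 fell, or 61.1%, and 1 rose. The metabotropic receptor mgl-2 fell by 1.69 and the ionotropic subunit glr-6 by 0.67 on the log2 scale. The glutamate-gated chloride channel subunit glc-1 was at 27.8 ± 1.18 CPM in L4 and 21.9 ± 7.37 CPM at day 10, with overlap. The gene that rose, glr-7, reached only 0.444 to 0.517 CPM, and its call was lost with upper-quartile factors, with no filter, in DESeq2's test and without L4 replicate 2 or 3 or day 10 replicate 1.

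Of 20 monoamine receptors 11 fell, or 55%, not far above the 45.0% of all tested genes that fell. The 2 that rose, octr-1 and dop-4, are named after their values were seen, and 40.5% of all tested genes rose. The octopamine receptor octr-1 stood at 0.710, 0.427 and 0.453 CPM in L4 and at 4.77, 3.83 and 3.40 CPM at day 10, a log2 fold change of 2.92 ± 0.18 (edgeR's adjusted p = 1.57e-05). It did not overlap between the ages. Other receptors for octopamine and tyramine were not called higher. The serotonin-gated channel lgc-50 fell by 2.23 and the serotonin receptor ser-4 by 0.72 on the log2 scale. The tyramine receptor ser-2 fell by 1.59, the octopamine receptor ser-3 by 1.15 and the tyramine-gated channel lgc-55 by 1.08 on the log2 scale, and ser-6, tyra-2 and tyra-3 had log2 fold changes of −0.70, −0.19 and −0.13 that missed the threshold (edgeR's adjusted p = 0.0708, 0.508 and 0.721).

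Among 11 tested terminal selectors, the transcription factors that hold a neuron's transmitter identity, 7 fell and 1 rose. Without L4 replicate 3, and also in DESeq2's test, 4 fell. The LIM homeobox gene lin-11 fell by 2.09 and lim-6 by 0.55 on the log2 scale, the latter call being lost under 7 of the 14 alternatives. The dopaminergic selector ast-1 fell by 1.61 on the log2 scale, while ceh-43, which also acts in the embryo, rose from 3.39 ± 0.561 to 45.3 ± 14.03 CPM. The GABA selector unc-30 was at 1.78, 1.32 and 0.905 CPM in L4 and 0.159, 0.524 and 0.984 CPM at day 10, with overlap (edgeR's adjusted p = 0.0566). The cholinergic selector unc-3 had a log2 fold change of 0.08 ± 0.25 (edgeR's adjusted p = 0.836). Day 10 animals also held transcripts of embryonic proneural factors, which act when neurons are born. The summed level of these 5 genes was 0.406 to 0.555 CPM in L4 and 12.1 to 17.2 CPM at day 10, with hlh-14 at 0 counts in all L4 libraries, and its part in the values above was not tested. Of 6 early zygotic genes, tbx-37, tbx-38 and end-3 rose, while end-1, med-1 and med-2 were too low to be tested and overlapped. Their summed level, mostly tbx-37 and tbx-38 at day 10, was 0.152 to 0.341 CPM in L4 and 20.1 to 28.5 CPM at day 10. Intestinal markers went from 4062 to 4240 CPM in L4 to 614.5 to 903.2 CPM, and 5 of 5 fell. Among all tested genes 45.0% fell and 40.5% rose. Of 5 epidermal markers 4 fell, with a summed 1959 to 2189 CPM in L4 and 40.5 to 86.6 CPM at day 10. The fifth, the collagen col-19, overlapped between the ages, made up most of the day 10 sum and was at 30.7 CPM on average in L4 and 47.4 CPM at day 10.

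**Figure D5:**
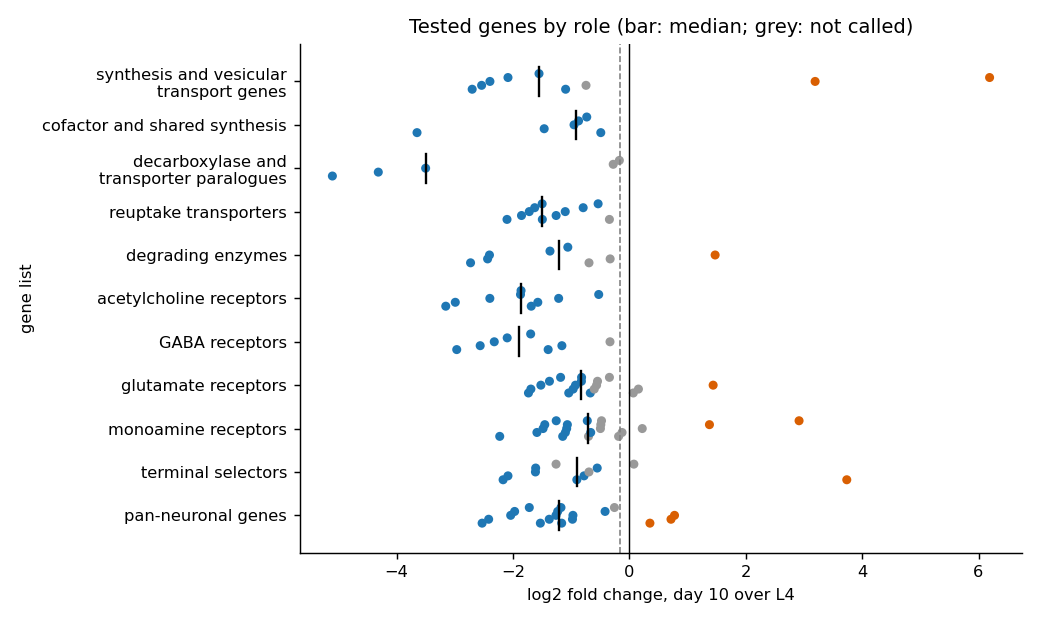
Log2 fold change of day 10 over L4 for each tested gene, by role, with orange for genes that rose, blue for genes that fell and grey for genes not called. Black bars mark the median of a list and the dashed line that of all tested genes, −0.16. All 9 other transmitter lists have medians below that line, and tbh-1, at 6.19, lies farthest to the right.

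The genes most like each of these in pattern were found by the Euclidean distance of centred log2 (CPM + 0.5) over the 6 libraries. For tdc-1 the nearest were F35C11.5 at a distance of 0.168 and Y48G1A.2 at 0.181, and for tbh-1 they were R04D3.3 at 0.376 and T26H5.9 at 0.391. The other genes of the set lay farther off, tdc-1 and tbh-1 being 3.43 apart. For unc-25 the nearest were Y106G6H.1 at 0.0907 and cest-31 at 0.0970, and for cha-1 C33H5.1 at 0.139 and rnp-9 at 0.151. The nearest to unc-17 were nhr-73 at 0.201 and F52D1.2 at 0.421. Nearest to eat-4 were pqn-18 at 0.236 and Y41E3.22 at 0.242, and to unc-47 dct-1 at 0.152 and F53C3.8 at 0.155. For cat-1 they were D2062.13 at 0.133 and Y57G11C.22 at 0.157, and for cat-2 rga-5 at 0.0747 and sft-4 at 0.103. The 0.5 CPM added before taking logs weighs on low genes, so that near neighbours can differ in fitted fold change. For example, C33H5.1 had a log2 fold change of −4.97, against −2.54 for cha-1.

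In the authors' deposited table, which rests on the same counts, the directions were the same. At an adjusted p under 0.05, the authors' deposited table calls 27.7% of its genes with a p-value higher at day 10 and 26.8% lower, and of the 10 genes 2 higher and 6 lower. Its adjusted p-values were 7.14e-33 for tbh-1, 1.39e-24 for tdc-1 and 1.19e-51 for unc-25, in the authors' deposited table. For unc-47 and tph-1 the authors' deposited table gave 0.436 and 1, above 0.05, and it gave 0.00386 for eat-4.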

How the data were processed

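RNA of whole N2 worms was profiled in 3 samples at day 10 and 3 at L4, grouped by their titles. Per the labels' protocols, animals were washed at least 3 times and frozen, Trizol was used to extract RNA, and 1 µg of it entered a TruSeq library preparation. Per the submitters' processing notes, CASAVA 1.8, HISAT2 and HTSeq were used. For the genome build, annotation and strand setting, nothing was given in the sources used here. The authors deposited raw read counts per gene. The deposited FPKM values equal those counts divided by 1 length per gene and by library size, differing by at most 8.3e-08 in relative terms. The authors' deposited comparison holds means of scaled counts, a signal equal to counts divided by median-of-ratios size factors (relative difference 9.3e-10), and p-values whose test was not given. Its column of log2 fold changes held spreadsheet errors and was not used.

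Symbols came from the gene name table and coordinates from the Ensembl release 115 annotation of WBcel235, which need not be the authors' build. Counts were tested with edgeR 4.0.16 in R 4.3.3 (TMM, default filter, robust quasi-likelihood fit, Benjamini-Hochberg at 0.05). The SE comes from log2 (CPM + 0.5) within the ages, which understates the spread of low genes. Ratios and shares were compared by exact permutation over the libraries. Every pair of libraries differed by more than sampling noise. The fit was tested on simulated data in which few genes changed, unlike here, so that test does not show how well these calls hold.

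The 10 genes and 19 lists were chosen with earlier results of these data known. The rule for named genes took the 10, in each list the 3 tested genes whose mean CPM was highest and the 2 nearest in pattern. Some marker lists are given by counts and sums only, without those names, and further genes (mod-5, unc-3 and octr-1 among them) were chosen after their values were seen. A planned search of promoters for motifs was not run, since no genome sequence was used here.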

Additional observations from a re-analysis of the deposited data

How the results depend on the processing

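The 2 rises (tdc-1 and tbh-1) and 6 falls among the genes were called under each of 14 alternatives: other scaling (DESeq2's size factors, upper-quartile factors, library size alone), dropping the filter or raising it to 1 CPM in 3 libraries, a non-robust fit, DESeq2 1.42.0, the replicate block and each library left out. Their log2 fold changes moved by at most 1.39-fold on the linear scale. The GABA transporter unc-47 passed only with upper-quartile factors (−1.19) and without day 10 replicate 3 (−1.03).

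Replicate numbers are shared by the ages, but nothing says that they mark a common culture. Deviations from the age means correlated at 0.019 to 0.0204 for libraries with the same number, under the 0.1 set for pairing, and at −0.0156 to −0.005 for different numbers, so each library correlated best with its own number. With the replicate block 2 genes rose and 6 fell, and 62 rather than 69 of the other transmitter genes fell.

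Signs turned when single libraries were left out for 3 differences that were near 0 or rested on few counts. The log2 ratio of cha-1 to unc-17 ranged from −0.44 to 0.34, eat-4 against the pan-neuronal genes from −0.27 to 0.24, and tph-1 against them from −0.19 to 1.16. A pseudocount of 2 counts and the mean of the pan-neuronal list without snb-1 turned no sign. TMM scaling cannot alter a share within a library, so that alternative was no test of the shares. Depth limits tph-1, with 20 and 21 pooled counts, and unc-47, with 46 and 66.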
